A study of Homo sapiens with 17 samples.

Results

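The 4 genes described here, *NKX2-1*, *NKX2-8*, *PAX9* and *FOXA1*, share a stretch of about a megabase on the long arm of human chromosome 14, and their promoters were followed as baits in Promoter Capture Hi-C (PCHi-C). The baits were the baited *Hin*dIII fragments of chr14 between 36 and 38 Mb (GRCh38) that carry a promoter of a member, taken as the transcript start and 1000 bp upstream in GENCODE 44, because the name column of the interaction lists holds strand signs and dots and no gene names. This gave 4 baits, 1 for each gene, of 13 baits in the interval and of 15982 baited fragments in the lists. The cells were naive and primed human pluripotent stem cells (PSCs) of the embryonic stem cell line H9 NK2, an isogenic pair from 1 line that differed in culture, naive PSCs in t2iL+PKCi medium and primed PSCs in TeSR-E8 medium. PCHi-C joins a captured promoter to the fragments it touches, and its 2 replicates a cell type had been combined into 1 list of interactions that reached a score of 5 in CHiCAGO, a measure of how far a pair exceeds the background at its distance. There were 79330 interactions in naive and 88985 in primed PSCs. Hi-C had 1 library a cell type, with 31310843 and 52056334 contacts in the naive and primed files. H3K4me1, a histone mark of enhancers and of the flanks of promoters, was profiled by CUT&RUN (antibody-directed cleavage of chromatin) in 2 naive and 3 primed libraries of 6.74 to 26.6 M reads. The study's methods call the replicates biological, but neither they nor the labels say that the libraries came from separate cultures, so p-values measure the spread between these libraries. No expression was measured in the files used here.

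*NKX2-1* and *NKX2-8* encode NK2 homeobox transcription factors, *PAX9* a paired-box factor and *FOXA1* a forkhead factor that can bind its sites in closed chromatin. *NKX2-1* is known for its part in the thyroid, lung and ventral forebrain, *PAX9* in the pharyngeal pouches and teeth, and *FOXA1* in foregut-derived endoderm. Pluripotent cells do not use these genes for their own identity, and in primed PSCs such developmental promoters commonly carry active and Polycomb-associated marks together. A second set of related genes, *NKX2-2*, *NKX2-4*, *PAX1* and *FOXA2*, lies in a similar arrangement on chromosome 20.

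The promoter sequences are shown because these fragments were the captured ends. On chr14 the *NKX2-1* bait covers 36516442 to 36522197, the *NKX2-8* bait 36573360 to 36584754, the *PAX9* bait 36656537 to 36658850 and the *FOXA1* bait 37588852 to 37598952. The *NKX2-1* bait also carries promoters of *NKX2-1-AS1* and *SFTA3*, and the *FOXA1* bait that of *TTC6*, so that the capture cannot tell these apart. Each line gives the 250 bases before a start, 5′ to 3′ on the gene's strand, with CpG dinucleotides in capitals. For *NKX2-8*, *PAX9* and *FOXA1* they are from RefSeq (GRCh38.p14), and for *NKX2-1* they precede the outermost GENCODE start in GRCh38, because both RefSeq windows of that gene overlap its annotated untranslated exons. The *FOXA1* window also overlaps an annotated exon of its gene.
NKX2-1, chr14:36521150-36521399, minus strand: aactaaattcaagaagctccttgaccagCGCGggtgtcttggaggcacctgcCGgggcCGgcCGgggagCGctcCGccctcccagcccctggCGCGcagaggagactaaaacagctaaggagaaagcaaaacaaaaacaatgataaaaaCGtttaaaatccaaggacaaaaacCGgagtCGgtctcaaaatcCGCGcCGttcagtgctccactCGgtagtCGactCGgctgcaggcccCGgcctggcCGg
NKX2-8, chr14:36582615-36582864, minus strand: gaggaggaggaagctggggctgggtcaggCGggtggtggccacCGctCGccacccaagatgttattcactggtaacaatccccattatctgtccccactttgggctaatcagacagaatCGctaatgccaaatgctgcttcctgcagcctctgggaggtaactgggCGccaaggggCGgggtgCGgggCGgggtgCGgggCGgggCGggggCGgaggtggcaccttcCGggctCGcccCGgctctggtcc
PAX9, chr14:36657318-36657567, plus strand: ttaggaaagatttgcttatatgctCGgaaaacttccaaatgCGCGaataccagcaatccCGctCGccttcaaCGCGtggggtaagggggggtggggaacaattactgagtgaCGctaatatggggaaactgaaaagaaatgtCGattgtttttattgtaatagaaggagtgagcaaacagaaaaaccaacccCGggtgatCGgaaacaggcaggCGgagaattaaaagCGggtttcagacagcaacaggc
FOXA1, chr14:37595250-37595499, minus strand: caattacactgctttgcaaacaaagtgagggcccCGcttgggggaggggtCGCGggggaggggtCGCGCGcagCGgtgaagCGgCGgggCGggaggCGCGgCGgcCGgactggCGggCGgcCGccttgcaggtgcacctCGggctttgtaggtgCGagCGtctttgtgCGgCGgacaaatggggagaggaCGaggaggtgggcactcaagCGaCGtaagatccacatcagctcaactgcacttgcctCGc

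The windows held 20, 15, 13 and 26 CpG for *NKX2-1*, *NKX2-8*, *PAX9* and *FOXA1*, against a median of 11 over 35116 RefSeq promoter windows of the same length. At least as many CpG were found in 32.5%, 42.9%, 46.6% and 19.6% of those windows, so that the windows of *NKX2-8* and *PAX9* were near the middle. The RefSeq windows of *NKX2-1*, not printed here, held 7 and 18 CpG. The other RefSeq window of *PAX9*, beyond the end of its bait, held 11. The whole baits held 67.1, 34.4, 58.3 and 46.5 CpG per kb in the same order, where the median of the 586 baits of chromosome 14 was 18.3. Of 3 motifs searched on both strands, ATGCAAAT (the octamer), GCCNNNGGC (the TFAP2 motif) and AACAAAG (a SOX motif), the 4 printed windows held 1 match to AACAAAG, before *FOXA1*, and 1 to GCCNNNGGC, before *NKX2-1*. AACAAAG occurs in 4.50% of all the promoter windows, the octamer in 1.63% and the TFAP2 motif in 19.8%.

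The first question was how many fragments each promoter touched in the 2 cell types. Primed PSCs had more partners at each of the 4 baits, and the gain was largest in number for *NKX2-1* and smallest for *NKX2-8*. The *NKX2-1* bait had 20 partners in naive and 63 in primed PSCs, 3.15 times as many (95% exact interval of the ratio 1.88 to 5.50). The *PAX9* bait went from 2 to 31 (15.5 times, 3.94 to 134), and the *FOXA1* bait from 7 to 34 (4.86 times, 2.12 to 13.0). The *NKX2-8* bait had 30 and 34, and its interval, 0.673 to 1.92, includes no difference. Among scores from 10 up it had 1 and 9, a ratio of 9.0 (1.25 to 394). Counted once each, the interactions of the 4 baits numbered 59 in naive and 156 in primed PSCs, a ratio of 2.64 (1.95 to 3.63). The intervals cover counting error only, since 1 combined list a cell type allows no test between replicates. They also take each fragment as a separate count, though partners lay in runs of neighbouring fragments, so they can be too narrow. More partners in primed PSCs were seen at 42.7% of all baits, and at least 1.5 times as many, as at *NKX2-1*, *PAX9* and *FOXA1*, at 35.4%, so the direction alone is common in these lists. The size was less so: 19 of the 15982 baits gained more partners than *NKX2-1*, 94 more than *PAX9*, 122 more than *FOXA1* and 2285 more than *NKX2-8*.

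**Figure D1:**
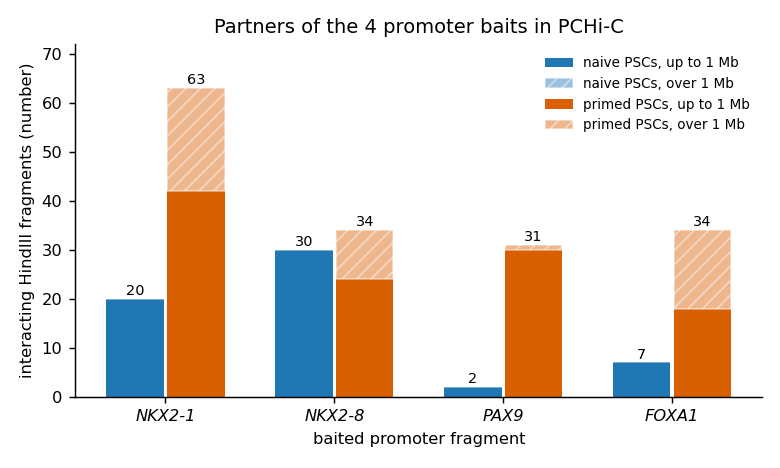
Number of interacting *Hin*dIII fragments of each bait in naive (blue) and primed (orange) PSCs, with fragments over 1 Mb away hatched. Primed bars reach 63, 34, 31 and 34 from left to right, and hatched parts are seen in primed PSCs and not in naive PSCs.

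Long interactions separated the cell types, while most median distances were close. Over the 4 baits together the median was 449 kb in naive and 494 kb in primed PSCs. In the same order it was 414 and 419 kb for *NKX2-1*, 497 and 507 for *NKX2-8*, 285 and 287 for *PAX9*. For *FOXA1* it was 344 and 948 kb. None of the 59 naive interactions exceeded 1 Mb, whereas 46 of the 156 primed ones did. *NKX2-1* had 21 of these partners, *FOXA1* 16, *NKX2-8* 10 and *PAX9* 1, where an interaction between 2 members counts for both. A partner over 1 Mb away in primed PSCs with none in naive PSCs, which all 4 baits showed, was found at 7.3% of all baits, and at least 5 such partners, as at 3 of the 4, at 1.31%. For *PAX9* it rested on 1 interaction with 4 reads, which was lost with scores from 7 up and with 10 or more reads. The longest naive interaction of the 4 baits spanned 655 kb. Only 11 of the 46 primed interactions exceeded 2 Mb. The *FOXA1* bait lies 1075 kb from that of *NKX2-1* and 1015 kb from that of *NKX2-8*, just past the 1 Mb limit. Neighbouring fragments around these baits were counted separately.

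The partners lay in a small number of places, listed here from low to high coordinates. With partner fragments less than 50 kb apart joined into 1 group, the 116 partner fragments fell into 10 groups, all on chromosome 14. Only 20 of the fragments were listed in both cell types, 28 were listed in naive PSCs alone and 68 in primed PSCs alone. As pairs, 25 of 190 were shared, 13.2% (Wilson interval 9.07 to 18.7). A pair just under the score limit in 1 list counts as specific to the other.

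The group held in common by both cell types at the *NKX2* genes was the stretch of 118 kb from 36049525 to 36167920, over the long non-coding RNA genes *LINC00609* and *PTCSC3*. *NKX2-1* had 14 naive and 12 primed interactions there, and *NKX2-8* had 24 and 9. The naive fragments with the highest score were 36103031 to 36103744 for *NKX2-1*, with 26 reads and a score of 11.8, and 36105941 to 36107005 for *NKX2-8*, with 27 reads and a score of 10.1. The first was listed in primed PSCs as well, with 20 reads and a score of 10.3, and the second was not listed for *NKX2-8* there. *PAX9* and *FOXA1* had no partner in this group in either list.

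Groups in naive PSCs alone lay next to it. From 35917830 to 35966366 *NKX2-8* had 6 interactions and *NKX2-1* 1. From 36269558 to 36321535, which holds the promoter of *MBIP*, a gene for a MAP3K12-binding protein, *NKX2-1* had 5. All 50 naive interactions of the *NKX2* baits therefore pointed to lower coordinates, away from *PAX9* and *FOXA1*. In primed PSCs 46 of the 63 partners of *NKX2-1* and 21 of the 34 of *NKX2-8* lay at higher coordinates.

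**Figure D2:**
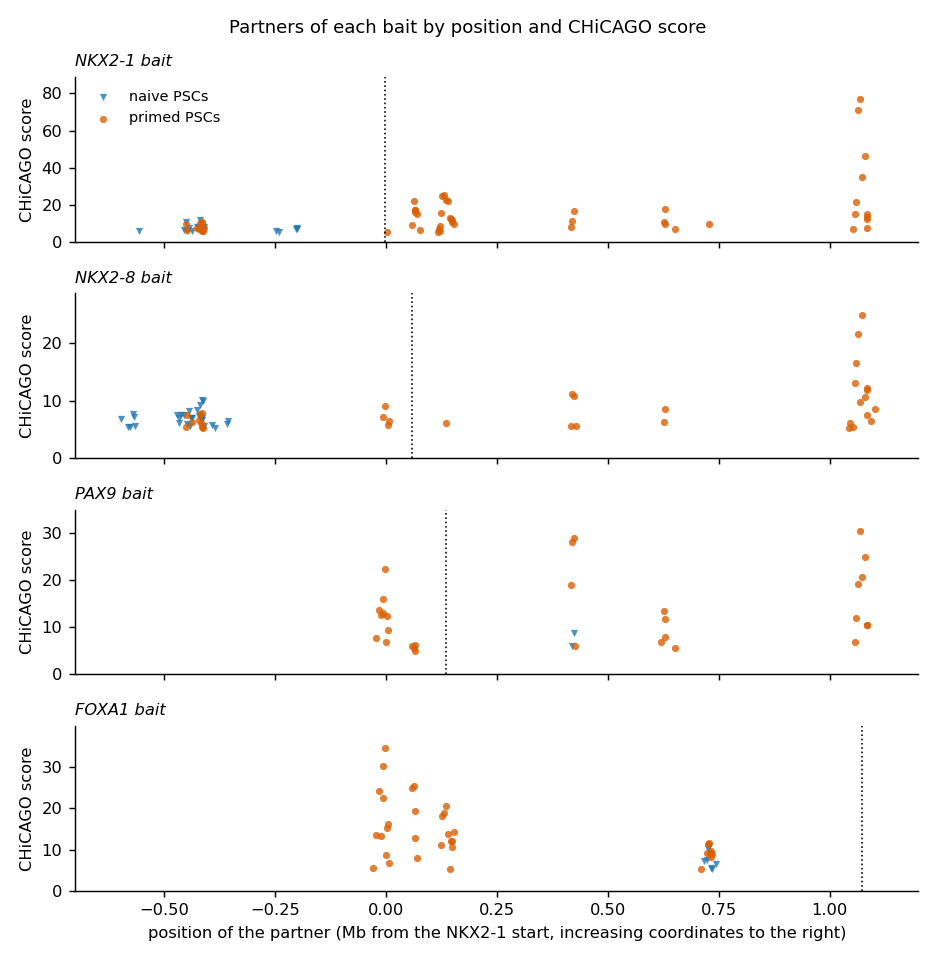
CHiCAGO score of each partner against its position in Mb from the *NKX2-1* start, 1 panel for each bait, with naive partners as blue triangles, primed partners as orange circles and the bait as a dotted line. Naive partners of *NKX2-1* and *NKX2-8* sit to the left of the bait, and primed partners with scores up to 77.2 sit around *FOXA1* at the right.

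The members touched one another in primed PSCs. All 6 possible pairs were listed in primed and 0 in naive PSCs. *NKX2-1* with *FOXA1*, 1075 kb apart, had 39 reads and a score of 34.8. *NKX2-8* with *FOXA1* had 25 reads and a score of 24.9, and *PAX9* with *FOXA1* 17 reads and a score of 20.6. The 3 nearer pairs had more reads. *NKX2-1* with *PAX9*, 138 kb apart, had 80 reads and a score of 22.4. *NKX2-1* with *NKX2-8* had 147 reads and a score of 8.99, and *NKX2-8* with *PAX9* 44 reads and a score of 6.06, the lowest scores of the 6. These last 2 pairs were listed from 1 of their baits and the other 4 from both.

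Around *FOXA1* the highest scores of *NKX2-1* and *PAX9* were beside its promoter fragment, and that of *NKX2-8*, 24.9, was at the fragment itself. In the group from 37562558 to 37626470, which had 33 primed and no naive interactions of the other 3 members, *NKX2-1* reached a score of 77.2 with 57 reads at a fragment of chr14:37588648-37588851 and 71.1 with 53 reads at chr14:37581820-37588647. The first adjoins the *FOXA1* bait on the side of the gene's 3′ end, and the second adjoins the first. *PAX9* also had its highest score, 30.3 with 19 reads, at the first of them. The fragment on the other side, chr14:37598953-37603573, scored 46.3 for *NKX2-1* and 24.9 for *PAX9*. This fragment is itself baited, and its own bait had 7 partners in naive and 40 in primed PSCs.

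In the other direction, *FOXA1* had 26 primed interactions from 36491391 to 36676927, the group that holds *NKX2-1*, *NKX2-8*, *PAX9* and *SFTA3*, a gene named for surfactant. Beside the *NKX2-1* bait these included the *SFTA3* bait at 36513439, with 22 reads and a score of 30.3. The *SFTA3* bait had 3 partners in naive and 28 in primed PSCs.

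*FOXA1* also kept a group of its own. From 37230752 to 37265904, inside *MIPOL1*, it had 7 naive and 8 primed interactions, and 5 fragments were listed in both. At chr14:37247184-37252091 the naive score was 10.9 with 17 reads and the primed score 11.7 with 20 reads. No other member had a partner there in naive PSCs, and *NKX2-1* had 1 in primed PSCs.

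*PAX9* had both of its naive partners in the introns of its neighbour *SLC25A21*, a mitochondrial carrier gene. The fragments chr14:36941101-36942350 and chr14:36942351-36946252 had 11 and 14 reads and scores of 6.12 and 8.74 in naive PSCs. Both had 36 reads in primed PSCs, with scores of 28.1 and 28.9. In primed PSCs *NKX2-8* touched the same 2 fragments, with scores of 11.2 and 10.8, and *NKX2-1* with scores of 11.1 and 16.5. The group from 36933736 to 36949247 had 3 interactions of *NKX2-1*, 4 of *NKX2-8* and 4 of *PAX9*. A further group around the *SLC25A21* promoter, 37141212 to 37178249, had 4, 2 and 5 interactions of these genes in primed PSCs and none in naive PSCs.

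Fragments touched by several members were common in primed PSCs. There, 22 of 88 partner fragments were listed with 3 members and 30 with 2. In naive PSCs 11 of 48 were listed with 2 members and 0 with 3. Neighbouring fragments and the 4 baits share their surroundings, so these counts are not independent.

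Hi-C gave a readout that the choice of baits did not use. Per the paper's methods, PCHi-C was captured from Hi-C library DNA, so they are not independent readouts. At 100 kb the genes fall into 3 bins, with *NKX2-1* and *NKX2-8* in 1 of them. The primed file lists 142462 pairs of bins of chromosome 14 and the naive file 5052, so a pair missing from the naive file is not read as 0, and ratios to the mean of the chromosome at the same distance are given for primed PSCs. With 1 library a cell type there is no test. The *NKX2-1* and *NKX2-8* bin with the *FOXA1* bin had 142 contacts where the mean at 1000 kb was 29.2, a ratio of 4.87, and 8 of 869 pairs at that distance had more. *PAX9* with *FOXA1* had 122 contacts, a ratio of 3.52, with 22 of 869 pairs higher.

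The bins of these members have 1.27 to 1.29 times the contacts of the mean bin of the chromosome. Every pair of the chromosome was then divided by the coverage of its bins, and the mean at each distance was taken anew. The ratio fell to 2.42 for *NKX2-1* with *FOXA1* and to 1.59 for *PAX9* with *FOXA1*. Both the pair and the mean change in this step, so the fall is not that of these bins alone. For *NKX2-1* with *PAX9*, 773 contacts at 100 kb, the ratio went from 1.82 to 0.783, below the new mean. Of the bins within 2 Mb that held a primed partner of *NKX2-1*, 7 of 7 had a ratio to the mean above 1. Their median was 2.42. Among bins that held no partner in either list, 3 of 28 exceeded 1, with a median of 0.598. Bins with naive partners alone, left out of both counts, had ratios of 1.62, 0.814 and 1.23. For *FOXA1* the ratio exceeded 1 in 4 of 4 bins with a primed partner. It did so in 17 of 34 bins without a partner in either list.

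**Figure D3:**
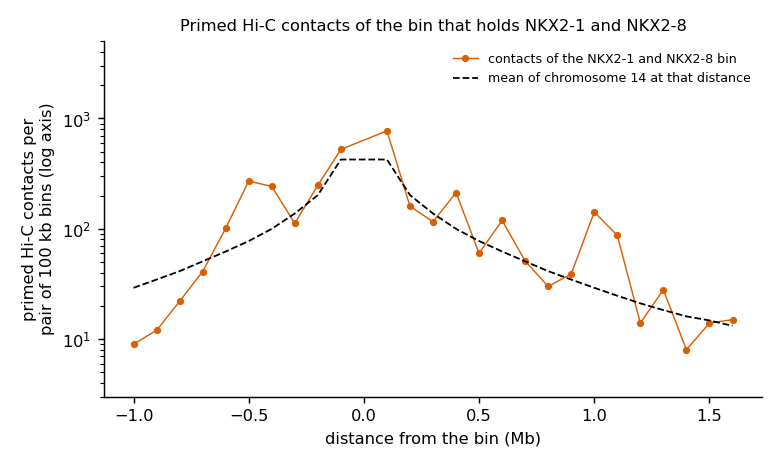
Primed Hi-C contacts between the bin that holds *NKX2-1* and *NKX2-8* and other 100 kb bins (orange), with the mean of all chromosome 14 pairs at the same distance (dashed), on a log axis. Peaks stand at -0.5 Mb with 271 contacts and at 1.0 Mb with 142.

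In the interval all pairs of bins 100 and 200 kb apart were listed for both cell types, so shares can be set side by side. The pair of the *NKX2-1* and *PAX9* bins took 349 of 7085 naive contacts at 100 kb, 4.93% (Wilson interval 4.45 to 5.45), and 773 of 8804 primed ones, 8.78% (8.21 to 9.39). The pair of the *NKX2-1* and *MBIP* bins took 376 of 3328 naive contacts at 200 kb, 11.3% (10.3 to 12.4), and 248 of 4329 primed ones, 5.73% (5.08 to 6.46). The directions are those of the interaction lists, where *NKX2-1* had partners in the group at *MBIP* in naive PSCs alone and *PAX9* as a partner in primed PSCs alone. No other pairs were set side by side, and PCHi-C was captured from Hi-C library DNA. The shares therefore describe and do not test the lists.

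H3K4me1 was compared at the baits first, as the mean log2 of the reads scaled to library size (RPM) over the 500 bp tiles of a fragment. The *FOXA1* bait rose in primed PSCs. Its naive libraries had -1.37 and -1.60 and its primed libraries 0.30, -0.05 and -0.09, so the groups did not overlap. The difference was 1.54 ± 0.37 (SE; limma, adjusted p = 0.00326). In the background, 26.7% of 147715 fragments tested were higher in primed and 25.6% higher in naive PSCs. The call depended on the libraries: without the second naive library the adjusted p was 0.0514, with a difference of 1.42.

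The other 3 baits did not pass the test. *NKX2-8* had -2.22 and -2.03 in naive and -1.13, -1.53 and -1.57 in primed libraries, with every primed library above both naive ones. Its difference was 0.71 ± 0.31 (adjusted p = 0.0663, limma), and it passed in edgeR on whole reads, with an adjusted p of 0.0118. *PAX9* had 0.42 and -0.44 against 0.51, 0.79 and 0.64, a difference of 0.66 ± 0.41 (adjusted p = 0.19, limma). *NKX2-1* had 0.24 and 0.10 against -0.40, -0.02 and -0.09, a difference of -0.34 ± 0.38 (adjusted p = 0.477, limma). Naive and primed libraries overlap at none of these 3 baits, and the naive libraries were the higher ones at *NKX2-1* alone. With each library centred on its median, the groups overlap at *NKX2-1* and *PAX9*. The mean over the 59 tiles of the 4 baits was -1.25 and -1.35 in naive and -0.37, -0.55 and -0.61 in primed libraries, a difference of 0.79. The exact permutation test, two-sided, gave p = 0.1, the smallest that 2 against 3 libraries allow.

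**Figure D4:**
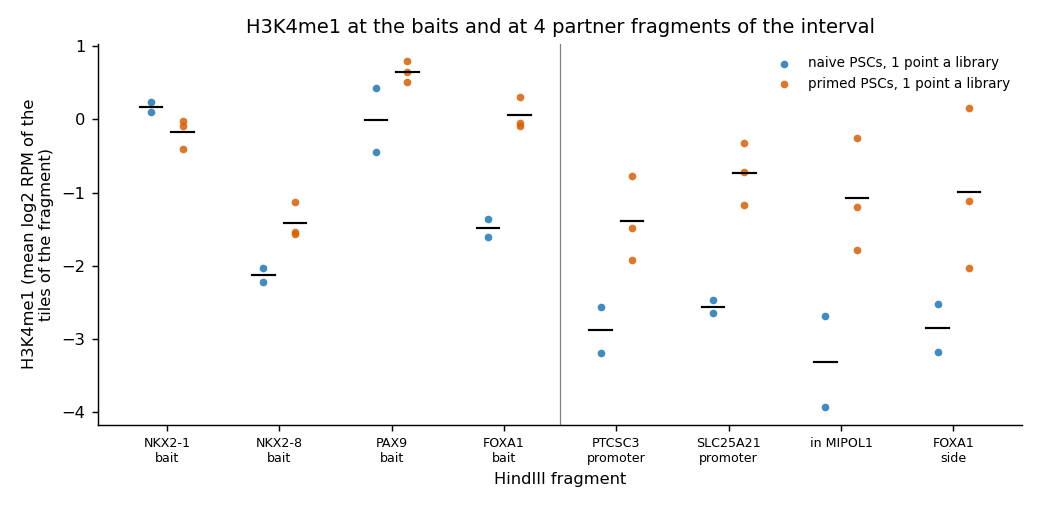
H3K4me1 as mean log2 RPM of the tiles of a fragment, with 1 point for each library (naive blue, primed orange) and the group mean as a black line. The baits are at the left, and at the right are partner fragments at the *PTCSC3* and *SLC25A21* promoters, in *MIPOL1* and on the *FOXA1* side. The groups are separate in each fragment shown. The partner fragments were chosen among those that passed the test, so their separation describes and does not test. The *MIPOL1* fragment has the widest gap between group means, 2.23.

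H3K4me1 was then compared at the partner fragments. Of the 116, 6 held no tile, and 43 passed the filter of a tile above log2 RPM 0 in at least 2 libraries. A fragment that passed through 1 cell type alone was likely to differ, so these counts describe and do not test. Among the 43, 20 were higher in primed, 1 in naive PSCs and 22 did not pass the test, with a median difference of 0.96. Leaving out the first or the second naive library gave 10 and 13 higher in primed PSCs. The member baits are themselves among these partners. Without them, 19 of 39 tested were higher in primed and 1 in naive PSCs, with a median of 0.99. Of 72 tested fragments of the interval that were no partners or member baits, 33 were higher in primed and 8 in naive PSCs, with a median of 0.98. Over all fragments tested the median was 0.02. Per library, partners of the interval exceeded its other fragments by 0.61 and 0.32 in naive and by 0.49, 0.41 and 0.59 in primed libraries, which overlap (exact permutation p = 0.9).

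By cell type of the interaction, of the 7 tested fragments listed in naive PSCs alone, 4 were higher in primed and 0 in naive PSCs. One of them, chr14:36163654-36167920 at the *PTCSC3* promoter, a partner of *NKX2-8*, had -3.19 and -2.57 in naive and -0.78, -1.92 and -1.49 in primed libraries, with a difference of 1.48 ± 0.37 (adjusted p = 0.00442, limma). It did not pass without the first naive library (adjusted p = 0.0601, limma). Of the 35 tested in primed PSCs alone, with the member baits counted, 15 were higher in primed and 1 in naive PSCs.

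The partners of the interval named next were picked among those that passed the test, so their values describe and do not test. Naive reads were few at the *MIPOL1* fragment, 10 and 6 over 8 tiles. At the fragment that starts at 37566806 they were 10 and 2 over 3 tiles. The fragment of *FOXA1* listed in both cell types, chr14:37254252-37258715 in *MIPOL1*, rose by 2.23 ± 0.45 (adjusted p = 0.00107, limma). The partner at the *SLC25A21* promoter, chr14:37166583-37178249, rose by 1.81 ± 0.34 (adjusted p = 5.78e-04, limma). On the *FOXA1* side, the partner of *NKX2-8* that starts at 37566806 rose by 1.85 ± 0.49 (adjusted p = 0.00639, limma), and it did not pass without the first naive library (adjusted p = 0.0861, limma).

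Along the 2 Mb of the interval, 281 of 4000 tiles passed the filter. Of these, 142 were higher in primed and 20 in naive PSCs, and over the genome the shares of tested tiles were 26.0% and 26.1%. Tiles high in 1 cell type alone pass by that cell type, so this count too is a description. The gains were spread over the whole interval, while 18 of the 20 losses fell within the 250 kb from 36250001 to 36500000, which hold *MBIP* and part of *SFTA3*. That window also held 16 of the gains, among 67 tested tiles. The largest loss, at 36385501, lay outside both genes, in an intron of the long non-coding RNA gene ENSG00000283098. Without the first or the second naive library, 10 and 12 tiles were higher in naive PSCs. The bait of *FOXA1* had 10 of its 14 tested tiles higher in primed PSCs, that of *NKX2-8* 3 of 8, that of *PAX9* 1 of 5 and that of *NKX2-1* 0 of 9.

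**Figure D5:**
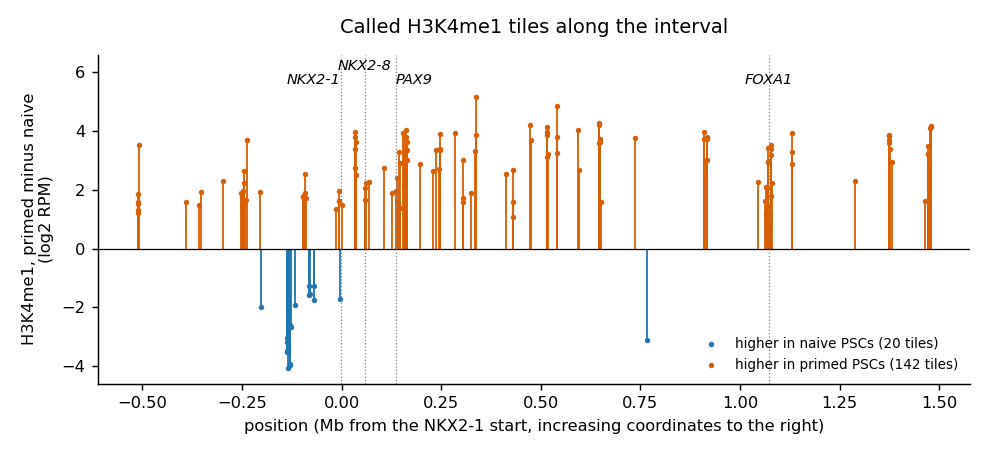
Difference of H3K4me1 (primed minus naive, log2 RPM) of the 162 called tiles against their position in Mb from the *NKX2-1* start, with the baits as dotted lines. The 142 orange tiles extend over the whole interval, and the blue tiles gather at the left of *NKX2-1*.

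The 5 largest gains lay in *SLC25A21*, at 36857001, 36994501, 37061001, 37167501 and 37168001. The tile at 36857001 had -4.45 and -2.91 in naive, close to the value of an empty tile, and 1.85, 1.41 and 1.24 in primed libraries, a difference of 5.18 ± 0.63 (adjusted p = 9.96e-05, limma). The last 2 lie in the partner of *NKX2-1* and *PAX9* at the *SLC25A21* promoter.

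The central 300 bases of the tile with the largest gain and of the tile with the largest gain within a partner fragment (at 37168001) are given on the plus strand of GRCh38, with CpG in capitals, to set them beside the promoters.
Gain, chr14:36857101-36857400, intron of SLC25A21: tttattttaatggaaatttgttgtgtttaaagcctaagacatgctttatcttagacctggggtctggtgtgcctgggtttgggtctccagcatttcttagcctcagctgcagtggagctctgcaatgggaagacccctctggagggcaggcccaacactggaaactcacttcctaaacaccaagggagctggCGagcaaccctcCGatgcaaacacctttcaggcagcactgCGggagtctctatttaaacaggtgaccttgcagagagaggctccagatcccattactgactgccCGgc
Partner, chr14:37168101-37168400, intron of SLC25A21: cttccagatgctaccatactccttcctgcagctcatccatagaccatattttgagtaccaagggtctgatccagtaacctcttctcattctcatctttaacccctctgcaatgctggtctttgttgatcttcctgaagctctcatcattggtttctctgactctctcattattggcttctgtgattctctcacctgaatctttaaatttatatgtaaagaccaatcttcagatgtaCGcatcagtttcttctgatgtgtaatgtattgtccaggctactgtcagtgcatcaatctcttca
They held 4 and 1 CpG, where the median of such windows over the 4000 tiles was 2. The second window held 1 match to AACAAAG on either strand, letters found in 9.47% of the windows of the interval, and neither held the octamer (3.53% of windows) or the TFAP2 motif (2.97%). The partner fragments themselves were poor in CpG. Their medians were 6.08 per kb for those of naive PSCs alone, 6.38 for both and 9.01 for primed PSCs alone, member baits left out, and 5.70 for 502 other fragments of the interval. By GENCODE 44, 18 of the 68 fragments of primed PSCs alone, member baits counted, held a promoter, 38 lay in introns and 12 held an exon. A promoter was held by 9 of the 28 fragments of naive PSCs alone and by 2 of the 20 of both.

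The neighbours that are no members did not move as a block. Of the 9 other baits of the interval, 5 had more partners in primed and 4 in naive PSCs. The bait of *MBIP* had 10 in naive and 4 in primed PSCs, and that of *PTCSC3* 5 and 0. Of 9 neighbouring genes (*BRMS1L*, *RALGAPA1*, *MBIP*, *SFTA3*, *SLC25A21*, *MIPOL1*, *TTC6*, *INSM2* and *PTCSC3*), 5 had a bait, and 2 of these, *SFTA3* and *TTC6*, had more partners in primed PSCs. Their totals, 23 and 91 for *SFTA3* and 7 and 35 for *TTC6*, contain those of the *NKX2-1* and *FOXA1* baits, on which they also have promoters, and the separate bait of *TTC6* had 0 and 1. Of their 5 tested baits 1 was higher in H3K4me1 in primed PSCs, the *FOXA1* bait that *TTC6* shares, and 1 in naive PSCs, at *RALGAPA1*.

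Listed genes of the chromosome, mainly developmental regulators but also receptors such as *PTGER2* and *SSTR1*, were counted in the same way. Of 19, with the 4 members among them, 18 had a bait and 16 of these, again with the 4 members, had more partners in primed PSCs, where 42.7% of all baits did. In H3K4me1, 4 of 19 tested baits were higher in primed PSCs (*FOXA1*, *SIX6*, *PTGER2* and *SSTR1*) and 1 in naive PSCs (*PROX2*), with a median difference of 0.32, where 26.7% and 25.6% of all fragments tested were called. Of 20 listed genes of foregut, lung, thyroid and ventral forebrain, 16 had a bait, and 12 of them had more partners in primed PSCs. Of their 17 tested baits 8 were higher in H3K4me1 in primed PSCs, among them *SHH*, a signal that acts beside *FOXA2* in the foregut and neural tube, by 1.70, and *LHX8*, and 1 in naive PSCs, *SFTPB*.

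The locus on chromosome 20 was set beside the members. *NKX2-2*, *NKX2-4*, *PAX1* and *FOXA2* had 7, 8, 2 and 10 partners in naive and 26, 32, 32 and 28 in primed PSCs. Together they had 27 and 112 interactions, with 0 and 43 over 1 Mb, and all 6 pairs of these genes were listed in primed and 0 in naive PSCs. Their ratio of 4.15 (2.71 to 6.57) and that of the chromosome 14 genes, 2.64 (1.95 to 3.63), have overlapping intervals. *PAX1* and *FOXA2* were higher in H3K4me1 in primed PSCs, by 2.26 ± 0.33 and 1.11 ± 0.38 (adjusted p = 1.05e-04 and 0.0237, limma). *NKX2-2*, with 0.03, and *NKX2-4*, with 0.55, did not pass the test, as *NKX2-1* and *NKX2-8* did not. In these respects nothing was shown to be particular to chromosome 14.

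The labels of the cells were checked against marker genes listed for naive and primed PSCs, read as H3K4me1 at their baits. Of 4 tested naive marker baits 3 were higher in naive PSCs (*DPPA5*, *DPPA3* and *SUSD2*). Of 5 tested primed marker baits 0 were higher in primed PSCs, and 1 was higher in naive PSCs. The depth of the H3K4me1 libraries moved with single means, since an empty tile stands at -4.6 and -2.91 in naive and at -3.30, -3.13 and -4.89 in primed libraries, and its part in the differences of low fragments was not tested.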

How the data were processed

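PCHi-C, Hi-C and H3K4me1 CUT&RUN files of naive and primed PSCs were used. Per the paper's methods, the authors mapped PCHi-C and Hi-C with HiCUP on GRCh38, and trimmed and mapped CUT&RUN reads with Trim Galore (0.4.5 and 0.5.0) and Bowtie2 (2.2.7 and 2.3.2; versions from the submitters' processing notes). The deposited PCHi-C lists hold the CHiCAGO score and a read number for each pair, from 2 combined replicates a cell type. The deposited Hi-C files hold counts of di-tags per pair of 100 kb bins, with no normalization. The deposited H3K4me1 values are log2 RPM of 500 bp tiles, with 0.9 reads written for an empty tile; whole reads were recovered from their steps for 100% of values within 0.01 reads. H3K4me1 was tested with limma 3.58.1 (R 4.3.3, trend) over all tiles above log2 RPM 0 in at least 2 libraries. Means of all *Hin*dIII fragments holding at least 1 such tile were tested in the same way. Both fits used Benjamini-Hochberg adjustment at 0.05. The limma fit was tried on simulated data, and edgeR 4.0.16 was run on the recovered reads of the fragments without such a trial. Whole-locus means were compared by exact permutation over the 10 splits. The deposited name column held no gene names, so baits were named from GENCODE 44. Fragments were cut in silico and matched all 88413 in the lists. Genes named were the 4 members, genes of the other baits of the interval and of joined baits, listed genes, and partners and tiles with the 5 largest called differences in each direction without overlap, and the 10 highest-scoring partners of each bait. The members and lists were chosen with earlier results of these data known. Alternatives were other filters, scalings, score and read limits, and leaving out each library. Some partner groups, tiles and marker genes are not reported here. Intervals cover counting error only, and those of partner numbers take neighbouring fragments as separate counts.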

Additional observations from a re-analysis of the deposited data

How the results depend on the processing

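The primed to naive ratio of the 4 baits went from 2.64 to 4.42 with scores from 7 up and 16.2 with scores from 10 up, and the share of pairs held in common from 13.2% to 6.82% and 3.61%. With both ends allowed to lie within 10 kb, 42 of 59 naive interactions (71.2%) and 33 of 156 primed ones (21.2%) had a match in the other list, 34.9% of both lists added, a base that counts shared pairs for each list. The 46 primed interactions over 1 Mb became 30 with scores from 10 up and 31 with 10 or more reads, and numbered 77 over 500 kb and 11 over 2 Mb. Naive PSCs had 14 over 500 kb, 13 of them at NKX2-8.

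In H3K4me1, the tiles of the interval higher in primed and in naive PSCs were 142 and 20, 291 and 36 without the filter and 23 and 4 with log2 RPM above 1. Leaving out 1 library gave 101 to 154 and 10 to 24, the lowest of both without the first naive library. Among partners, 20 and 1 became 10 and 0 with log2 RPM above 1, where 18 were tested; 2 were higher in naive PSCs without the filter and 0 by the highest tile. Leaving out 1 library gave 10 to 23 and 0 to 1, with 10 without the first naive library and 13 without the second. With the replicate number as a block 12 and 0 were called. Replicates 1 and 2 share only a number: the correlation of their deviations was 0.0349 and 0.031. The 9 named partners and gained tiles of the interval, all picked among called ones, kept their direction and call in 96 of 98 values, and 0 reversed. The tile with the largest loss was not among them. FOXA1 fell short of the threshold by its highest tile, with an adjusted p of 0.0516 (limma).

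The lowest or highest differences of means came without the first or the second naive library, other than over the baits. Without 1 library they ranged from 0.029 to 0.79 over the interval, from 0.72 to 0.84 over the baits, from -0.04 to 0.64 over partners of naive PSCs alone, from -0.13 to 0.61 over those of both, from 0.41 to 0.81 over those of primed PSCs alone, and from -0.11 to 0.17 for partners against other fragments. Median centring gave 0.92 over the baits.

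For the pairs given here, Hi-C ratios were lower with coverage divided out of every pair and the mean taken anew. In 200 kb bins they were lower too, other than 1.28 for NKX2-1 with MBIP. With coverage they were 0.783 for NKX2-1 with PAX9, 2.42 with FOXA1, 1.82 with LINC00609 and 0.526 with MBIP (1.23 before), and 1.59 for PAX9 with FOXA1. In 200 kb bins they were 1.39, 2.61 and 2.68 for the first 3 and 1.96 for PAX9 with FOXA1. Against the median they were 7.47 for NKX2-1 with FOXA1, 4.37 with LINC00609 and 5.30 for PAX9 with FOXA1. The cause of these changes was not tested.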
